A study of Zea mays with 8 samples.

Results

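The members are the 136 maize genes that the rule picked as higher in hda108 than in wild-type (WT) anthers, first after meiosis and again at the mitotic stage, out of 39604 genes in the deposited table. A gene was a member when log2(FPKM + 1) was at least 2 higher in hda108 at each stage and WT had at least 0.5 FPKM at 1 stage or the other. FPKM counts mapped fragments per length of transcript and per size of library. The difference of 2 corresponds to 4-fold for abundant genes. The rule sets aside 10 genes that met the same limits. Members were thus chosen by their FPKM in all 4 groups, and the genotype differences of the members are given as a description and carry no test.

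The RNA came from anthers, in which maize makes its pollen, of field-grown plants. WT plants were compared with plants of genotype hda108/hda108, which carry 2 mutant copies of HDA108, a gene for a histone deacetylase. The sources used here do not give the kind of mutation or the genetic background. Anthers of each genotype were sampled at both stages, which makes 4 groups, each with 2 libraries of anthers pooled from 3 tassels. The table holds 1 value per gene and group, so no spread between libraries can be given, and no difference below has a replicate check or a p-value.

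Histone deacetylases remove acetyl groups from the tails of histones, and their action at a gene generally goes with less transcription. In plants, loss of such an enzyme can leave genes active in organs or at stages where they are normally low. Among the named members are genes of pathways that maize uses against pests and microbes (proteins toxic to attackers, benzoxazinoids, terpenes, oxylipins), of the handling of sugars and raffinose-type oligosaccharides, and of the transport of mineral nutrients and lipids. HDA108 (GRMZM2G136067) itself was not a member, at 12.3 FPKM in WT against 4.10 FPKM in hda108 after meiosis, then 6.43 against 4.30 FPKM in mitotic anthers. These values are as deposited, and the direction of the mitotic difference, -0.49 log2, depends on how the groups are scaled.

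Of the 24360 genes that reached 1 FPKM in a group, 410 (1.68%) were higher in hda108 by this rule after meiosis, 371 (1.52%) at the mitotic stage and 176 (0.722%) at both. The 176 comprised the 136 members, the 10 set aside, and 30 genes with WT under 0.5 FPKM at both stages. Another 234 genes passed after meiosis alone and 195 at the mitotic stage alone. The 3 members nearest the limit from inside were GRMZM2G121313, GRMZM2G007477 and GRMZM2G131087, whose smaller differences were 2.02, 2.02 and 2.03. The 3 genes nearest from outside were GRMZM2G056513, GRMZM2G336824 and GRMZM2G467893, at 2.00, 2.00 and 1.98, all below the limit before rounding.

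**Figure D1:**
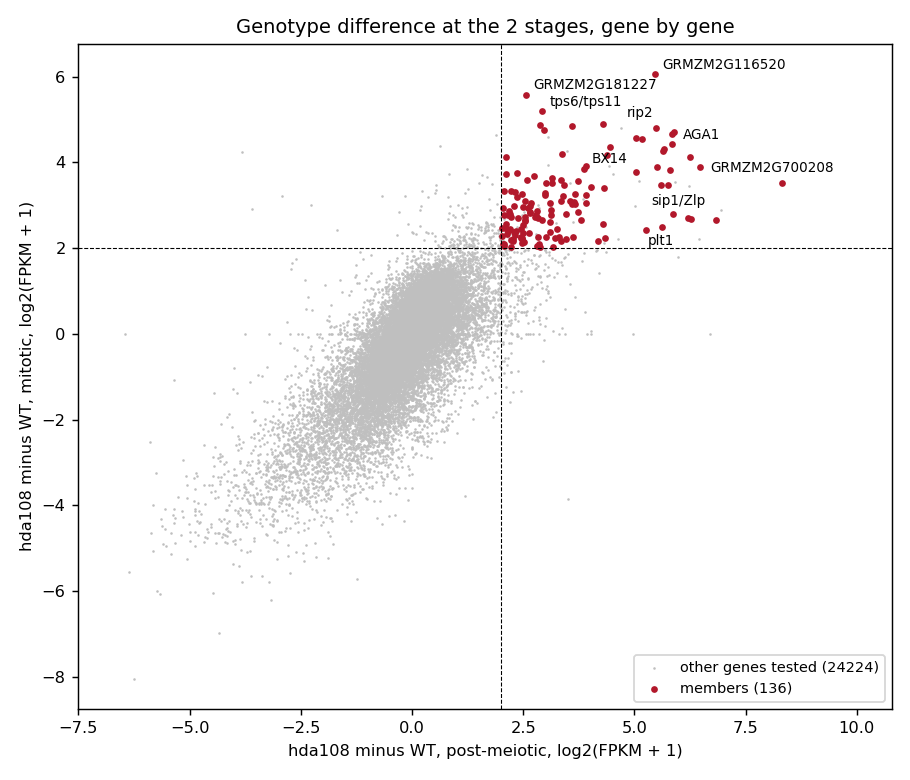
Each point is 1 gene with at least 1 FPKM in a group. The x axis is the hda108 minus WT difference in log2(FPKM + 1) after meiosis and the y axis the same at the mitotic stage. Dashed lines mark the difference of 2 that chose the 136 members (red). GRMZM2G700208 lies farthest right, at 8.33, and GRMZM2G116520 highest, at 6.06.

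The members were scarce RNAs in WT. Their median was 2.44 FPKM in WT against 38.0 FPKM in hda108 after meiosis, and 1.86 against 28.5 FPKM at the mitotic stage. In WT, 27 members were under 1 FPKM after meiosis and 44 at the mitotic stage, and in hda108 each of the 136 had at least 4 FPKM. The limit at 0.5 FPKM in WT and the difference required set these ranges in part. Summed, the members had 915 FPKM in WT against 20306 FPKM in hda108 after meiosis, or 0.0855% and 2.90% of the FPKM of all genes. In mitotic anthers the sums were 1184 and 11260 FPKM, or 0.0922% and 2.23%. The 3 most abundant members, plt1, kin1 and AGA1, held 36.0% and 35.4% of the members' sum in hda108 at the 2 stages.

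The median difference was 2.98 log2 after meiosis and 2.86 log2 at the mitotic stage, against -0.03 and -0.02 for all genes tested. After meiosis 31 members differed by 4 or more and the highest by 8.33. At the mitotic stage 20 did, and the highest difference was 6.06. Both hda108 values lay above both WT values in 135 members, whatever the stage, which the difference required at each stage set in part. The exception was GRMZM2G035049, whose 44.9 FPKM in WT post-meiotic anthers exceeded the 21.7 FPKM in hda108 mitotic anthers.

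The FPKM of all genes summed to 1069800 and 701133 in WT and hda108 after meiosis and to 1284190 and 505427 at the mitotic stage. Rescaling every group to the same sum moved the median difference of all genes to 0.50 and 1.05 log2 and that of the members to 3.55 and 4.04. Rescaling raised the hda108 values and lowered the WT values, as the sums were lower in hda108. All 136 members thus stayed past the limit of 2 at both stages by construction. With quantile normalization, which could move them either way, 133 did. Among all genes, 3.38% and 13.7% were higher in hda108 by 2 or more after rescaling, and 2.72% and 2.47% lower. Markers of other cell types in the anther were read from named genes. As deposited, 13 of 13 genes listed as pollen markers were below WT in hda108 at each stage, 9 and 7 of them by 2 or more. Of all genes tested, 4.47% and 8.12% were lower by as much. The summed FPKM of the pollen list was 24204 in WT and 4392.65 in hda108 after meiosis and 39173 and 6066 at the mitotic stage. The 4 tapetum markers summed to 137 and 84.4 FPKM after meiosis and 87.9 and 55.8 FPKM at the mitotic stage, and the green tissue markers, of which 12 of 13 were tested, to 3052 and 2915, then 639 and 458 FPKM. Among these, 1 tapetum marker was higher by 2 or more in hda108 post-meiotic anthers, 1 was lower by as much in mitotic ones, and no green tissue marker was either. No marker on these lists was listed at 0 in any group. Rescaled marker values are not given, and the direction of small differences depends on the scaling. ABP3, for one, a gene on the pollen list, differed by only -0.29 and -0.30 log2. Whether each listed gene is particular to its cell type was not examined. Relative to WT, the green tissue sum fell less than that of all genes at each stage, the tapetum sum only at the mitotic stage. In bulk anthers fewer cells of a type and less RNA per cell cannot be told apart, and the part that the cell makeup has in the members' values was not tested.

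Of the 136 members, 91 matched an entry of the RefSeq name table and 19 had a gene name there, against 66.0% and 9.07% of the genes tested. The others are given by their IDs, without a role. The plot of the named members shows the 4 FPKM values of each.

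**Figure D2:**
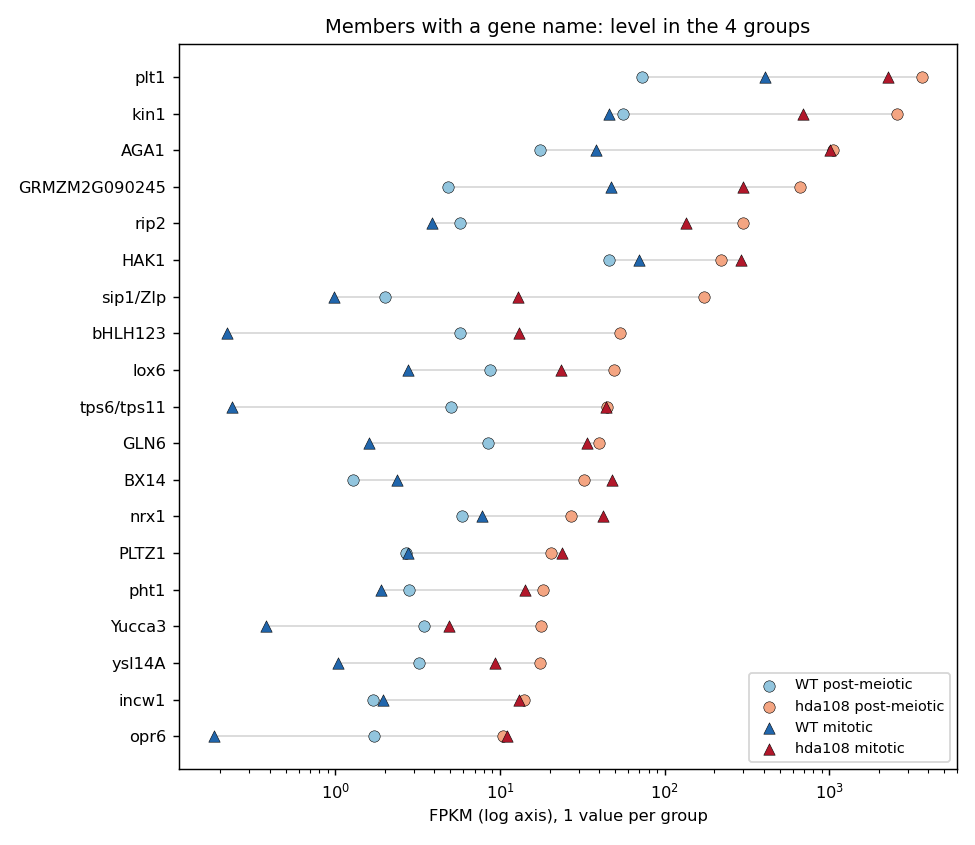
FPKM on a log axis for the 19 members with a gene name, 1 point per group (circles post-meiotic, triangles mitotic; WT light and dark blue, hda108 orange and red), ordered by the hda108 post-meiotic value. Both hda108 points lie right of both WT points for every gene, from opr6 (10.4 and 10.98 FPKM in hda108) to plt1 (3666 and 2288). GRMZM2G090245 is shown by its ID because the name table gives it to 2 genes.

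Members of sugar metabolism included an abundant one. AGA1 (GRMZM2G340656, chromosome 7, 19063720 to 19101243, B73 RefGen_v3), an alkaline alpha-galactosidase gene whose enzyme frees galactose from raffinose-type sugars, had 17.4 FPKM in WT after meiosis and 38.5 FPKM in mitotic anthers. In hda108 it had 1051 and 1006 FPKM. The hda108 values of AGA1 were thus nearly level between the stages, and both were far above WT, 60.4-fold after meiosis and 26.1-fold at the mitotic stage. The coordinates of AGA1 are also those of GRMZM2G462325, which had 29.4 FPKM in WT against 25.5 FPKM in hda108 after meiosis, then 18.4 against 15.9 FPKM in mitotic anthers, lower in hda108. As deposited, the 2 IDs differed in opposite directions at both stages. The difference of GRMZM2G462325, -0.20 log2 at each stage, became 0.39 and 1.08 after rescaling, so its direction rests on the scaling.

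The second member of sugar metabolism was incw1 (GRMZM2G139300, chromosome 5, 169497596 to 169502089), a cell wall invertase gene whose enzyme splits sucrose outside the cell. It had 1.68 FPKM in WT against 13.9 FPKM in hda108 after meiosis, while in mitotic anthers it had 1.94 and 12.98 FPKM. It was nearly level between stages within each genotype, at a far lower FPKM than AGA1. Of 15 tested genes on the galactosidase and sugar list, 2 were higher in hda108 at both stages, the 2 members named here, while 1 was lower in post-meiotic anthers and 6 in mitotic ones. Of all genes, 0.722% were higher at both stages, and 4.47% and 8.12% were lower. Rescaled, 0 on the list were lower after meiosis and 2 in mitotic anthers, against 2.72% and 2.47% of all genes. The list medians were -0.35 and -0.30 log2, or 0.25 and 0.999 after rescaling, below the 0.50 and 1.05 of all genes.

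Among genes for proteins that act on attackers, rip2 (GRMZM2G119705, chromosome 7, 162849639 to 162851038) encodes a ribosome-inactivating protein, which stops translation by cutting a base from ribosomal RNA. It had 5.72 FPKM in WT against 300 FPKM in hda108 after meiosis, and 3.84 and 134 FPKM at the mitotic stage. The ratios were 52.5-fold and 35.0-fold, the largest smaller difference (4.80 log2) of any named member. Of 11 tested genes on the list of proteinase inhibitors and ribosome-inactivating proteins, 4 were higher after meiosis and 2 at both stages. The shares of all genes were 1.68% and 0.722%. The list medians were 0.47 and -0.27 log2, or 1.06 and 1.07 after rescaling, against 0.50 and 1.05 for all genes. The other gene of that list higher at both stages, wip1, was among those set aside.

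The member sip1, also named Zlp for zeamatin-like protein (GRMZM2G374971, chromosome 7, 160254707 to 160256026), belongs to the thaumatin family of antifungal proteins. Its FPKM after meiosis was 2.00 in WT and 175 in hda108, and at the mitotic stage 0.979 and 12.8. The high value was in hda108 post-meiotic anthers, 13.6-fold above the mitotic ones of the same genotype. On the list of glucanases and pathogenesis-related proteins, 6 of 7 tested genes were higher after meiosis and 4 at both stages, of which sip1 alone is a member, since Gns1 and PR-5 were set aside and geb1 had WT under 0.5 FPKM. Of all genes, 1.68% were higher after meiosis and 0.722% at both stages. The list medians were 3.48 and 2.21 log2, against -0.03 and -0.02 for all genes. After rescaling they were 4.06 and 3.25, against 0.50 and 1.05. This list missed PR10 (GRMZM2G112524), which was set aside and differed by 2.26 and 2.32 log2. The chitinase list matched 3 tested genes by symbol and missed GRMZM2G145461. It had 3 higher after meiosis and 2 at both stages, against the same 1.68% and 0.722% of all genes. Those 2 were set aside.

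BX14 (GRMZM2G127418, chromosome 2, 144827058 to 144828816) encodes an O-methyltransferase late in the synthesis of benzoxazinoids, the grasses' hydroxamic acid toxins. Its WT level was 1.27 FPKM after meiosis, with 2.38 FPKM in mitotic anthers, against 32.4 and 47.8 FPKM in hda108. The differences of 3.88 and 3.85 log2 were close to each other. Of 8 tested benzoxazinoid genes BX14 was the sole one past the limit at either stage as deposited. Of all genes, 1.68% passed after meiosis and 1.52% at the mitotic stage. After rescaling 2 passed in post-meiotic anthers, where 3.38% of all genes did. The list medians were 0.89 and -0.12 log2, or 1.36 and 0.87 after rescaling, against 0.50 and 1.05 for all genes.

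The ID GRMZM2G127087 (chromosome 10, 55612815 to 55765958) stands for both tps6 and tps11 in the name table, terpene synthase genes whose enzymes make the sesquiterpene precursor of the zealexin phytoalexins. Since the copies share one ID, their reads cannot be assigned to either. The ID had 5.01 FPKM in WT against 44.5 FPKM in hda108 after meiosis, then 0.236 and 44.2 FPKM at the mitotic stage. Its level was even between stages in hda108 and 21.2-fold lower at the mitotic stage in WT, so that the ratio of genotypes went from 8.90-fold to 187-fold. The terpenoid and phytoalexin list, matched by symbol, held 14 tested genes. Of them 2 were higher after meiosis, 3 at the mitotic stage and 2 at both, against 1.68%, 1.52% and 0.722% of all genes. The symbols TPS2, TPS3, TPS4, TPS5 and TPS9 each stood on more than 1 ID, so some matches may belong to other gene families. Whether they do was not examined, and the counts describe symbols rather than a pathway. The list medians were -0.03 and 0.19 log2, or 0.44 and 1.21 after rescaling, against 0.50 and 1.05 for all genes.

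Oxylipins are signals and defence compounds made from oxidised fatty acids, jasmonate among them. The lipoxygenase-family gene lox6 (GRMZM2G040095, chromosome 2, 4192151 to 4196263) had 8.66 and 2.74 FPKM in WT at the 2 stages against 49.4 and 23.3 FPKM in hda108. The 12-oxo-phytodienoic acid reductase family gene opr6 (GRMZM2G068947, chromosome 3, 69859513 to 69861831) had 1.72 and 0.183 FPKM in WT against 10.4 and 10.98 FPKM in hda108. Both were lower at the mitotic stage in WT, while in hda108 lox6 was lower and opr6 level. Of 29 tested jasmonate and oxylipin genes, 4 were higher at both stages, lox6 and opr6 with lox1 and lox10 that were set aside, and 3 were lower at the mitotic stage. Among all genes 0.722% were higher at both stages and 8.12% lower at the mitotic stage. The list medians were 0.65 and -0.12 log2, or 1.14 and 0.92 after rescaling, against 0.50 and 1.05 for all genes. Rescaled, 8 of the list were higher and 0 lower in mitotic anthers, against 13.7% and 2.47% of all genes.

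Transport proteins included the most abundant member. The gene plt1, also PLTP (GRMZM2G101958, chromosome 10, 4168396 to 4169548), encodes a phospholipid transfer protein of the lipid transfer protein family. It had 73.1 FPKM in WT against 3666 FPKM in hda108 after meiosis, and 407 and 2288 FPKM at the mitotic stage. WT was 5.56-fold higher at the mitotic than at the post-meiotic stage, and hda108 was 1.60-fold lower, so the ratio between genotypes was 50.1-fold after meiosis and 5.63-fold at the mitotic stage.

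The potassium transporter gene HAK1 (GRMZM2G093826, chromosome 2, 62482766 to 62487721) had 46.0 and 70.1 FPKM in WT at the 2 stages, and 219 and 291 FPKM in hda108. The phosphate transporter gene pht1, also PT1 (GRMZM2G326707, chromosome 5, 31900809 to 31903008), had 2.79 and 1.88 FPKM in WT, against 18.2 and 14.1 FPKM in hda108. The transporter gene ysl14A (GRMZM2G368398, chromosome 4, 144754196 to 144760416), of the yellow stripe-like family that moves metals bound to nicotianamine, had 3.21 and 1.03 FPKM in WT against 17.4 and 9.28 FPKM in hda108. All 3 differed by 2.04 to 2.39 log2, near the limit. On the nutrient transport list, 4 of 43 tested genes were higher and 6 lower in hda108 after meiosis. At the mitotic stage 5 were higher and 5 lower. Of all genes, 1.68% were higher and 4.47% lower after meiosis, and 1.52% and 8.12% at the mitotic stage. The list medians were 0.23 and -0.07 log2, or 0.78 and 0.93 after rescaling, against 0.50 and 1.05 for all genes. Rescaled, 7 were higher and 3 lower after meiosis, against 3.38% and 2.72% of all genes. In mitotic anthers 10 were then higher and 4 lower, against 13.7% and 2.47%.

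Members of nitrogen, hormone and redox metabolism were moderate in level. GLN6, also GS1-1 (GRMZM2G050514, chromosome 1, 27978350 to 27982007), a cytosolic glutamine synthetase gene whose enzyme builds ammonium into glutamine, had 8.45 FPKM in WT against 40.1 FPKM in hda108 after meiosis. At the mitotic stage it had 1.60 and 33.7 FPKM, a ratio of 21.1-fold against 4.75-fold after meiosis, with the lower WT value at the mitotic stage. Yucca3 (GRMZM2G107761, chromosome 4, 14185127 to 14208882), of the flavin monooxygenases that make auxin, had 3.47 and 0.377 FPKM in WT at the 2 stages against 17.7 and 4.89 FPKM in hda108. Both genotypes had less Yucca3 at the mitotic stage. The nucleoredoxin gene nrx1 (GRMZM2G048324, chromosome 1, 70432376 to 70436980), of a family of thiol-disulfide enzymes, had 5.84 and 7.77 FPKM in WT against 27.0 and 42.0 FPKM in hda108.

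The transcription factor gene bHLH123 (GRMZM2G369629, chromosome 6, 124380274 to 124381777) had 5.71 FPKM in WT against 53.3 FPKM in hda108 after meiosis, and 0.219 and 13.1 FPKM at the mitotic stage. It was lower at the mitotic stage in both genotypes. Of 30 tested bHLH genes it was the sole one higher at either stage as deposited, where 1.68% and 1.52% of all genes were. After rescaling 3 were higher in mitotic anthers, where 13.7% of all genes were. The list medians were 0.23 and -0.02 log2, or 0.70 and 1.13 after rescaling, against 0.50 and 1.05 for all genes. The 14 lists with no member, which include the chitinase, homeobox, WRKY, NAC, MYB and heat shock genes, held 273 tested genes, of which 5 (1.83%) were higher at both stages, against 0.722% of all genes. The 5 were the chitinase genes chiA and chn1 and the homeobox gene gt1, which were set aside, and bZIP113 and CYP78A53, which had WT under 0.5 FPKM. As deposited, no WRKY, NAC or heat shock gene was higher at either stage, of 17, 18 and 23 tested, where 1.68% and 1.52% of all genes were. After rescaling 1 WRKY gene (mitotic) passed, as did 1 NAC gene at each stage, where 3.38% and 13.7% of all genes passed.

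For 3 further named members no role is given here. The gene kin1 (GRMZM2G158394, chromosome 7, 176260710 to 176262411) was the second most abundant member in hda108 post-meiotic anthers, with 56.1 and 46.0 FPKM in WT at the 2 stages against 2599 and 692 FPKM in hda108. PLTZ1 (GRMZM2G004548, chromosome 5, 198868435 to 198870185) had 2.70 and 2.74 FPKM in WT against 20.4 and 23.9 FPKM in hda108. These 2 genes differ in pattern: kin1 was higher after meiosis in hda108, and PLTZ1 was level between stages in both genotypes. GRMZM2G090245 (chromosome 6, 161647239 to 161648156), which the name table gives to 2 genes, 1 of them named ALDH12 and mis1, had 4.80 and 46.9 FPKM in WT against 661 and 301 FPKM in hda108.

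Most of the members with the largest differences have no name. GRMZM2G116520 (chromosome 10, 96691686 to 96692590) led by the smaller of its 2 differences, with 6.46 and 3.48 FPKM in WT at the 2 stages against 327 and 298 FPKM in hda108. GRMZM2G075315 (chromosome 10, 98012819 to 98014117) had 3.69 and 9.17 FPKM in WT against 275 and 264 FPKM in hda108. Both were nearly level between stages in hda108, as AGA1 was. GRMZM2G358153 (chromosome 4, 12097105 to 12098498) had 2.87 and 3.06 FPKM in WT against 139 and 93.9 FPKM in hda108.

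A second set of unnamed members was higher after meiosis than at the mitotic stage in hda108. GRMZM2G026143 had 3.08 and 1.38 FPKM in WT against 205 and 46.0 FPKM in hda108. GRMZM2G039639 had 2.12 and 0.987 FPKM in WT against 235 and 33.9 FPKM in hda108. GRMZM2G090226 had 5.84 and 9.43 FPKM in WT against 341 and 201 FPKM in hda108. GRMZM2G109959 had 20.1 and 9.29 FPKM in WT against 443 and 186 FPKM in hda108. In each of these 4 genes, as in 135 of the 136 members, both hda108 values lay above both WT values. The longest locus among the members belonged to GRMZM2G011523 (chromosome 3, 23906022 to 24097603), an ID that matched 2 entries of the name table, with 19.4 and 9.17 FPKM in WT against 306 and 153 FPKM in hda108. GRMZM2G447785 (chromosome 2, 38711301 to 38712712) had 9.18 and 13.3 FPKM in WT against 908 and 212 FPKM in hda108.

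Clone-based IDs occur among the 15 members with the largest smaller difference. AC148152.3_FG005 (chromosome 2, 231952641 to 231954277) had 0.0448 and 1.24 FPKM in WT against 59.3 and 47.0 FPKM in hda108. AC204212.4_FG001 (chromosome 5, 201176613 to 201176904) had 1.55 FPKM after meiosis in WT and was listed at 0 there at the mitotic stage, against 48.9 and 28.6 FPKM in hda108. In WT, GRMZM2G043460 was also listed at 0 at the mitotic stage, and GRMZM6G132224 and GRMZM6G816863 were listed at 0 after meiosis. In hda108 these 3 had 9.60 FPKM at the mitotic stage, and 7.53 and 9.20 FPKM after meiosis, respectively. No ratio is given for a value listed at 0.

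The genotype difference was within 1 log2 between the 2 stages in 97 of 136 members (71.3%), against 83.9% of all genes. It was at least 1 log2 larger after meiosis in 28 (20.6%) and at the mitotic stage in 11 (8.09%). The shares of all genes in these directions were 11.4% and 4.68%. By the limit of 2, 13 members (9.56%) differed more after meiosis, where 2.03% of all genes passed in this direction, and 3 (2.21%) differed more at the mitotic stage, where 0.423% did. The 2 stages share no library, but the choice of members used both contrasts, so these shares are a description. After rescaling the counts were 7 (5.15%) after meiosis and 7 (5.15%) at the mitotic stage, where 0.915% and 1.52% of all genes passed, so the balance of all genes reversed as well.

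GRMZM2G700208 (chromosome 10, 33357028 to 33360934) had the largest post-meiotic difference of all members, 8.33 log2. It had 1.52 and 0.753 FPKM in WT at the 2 stages against 808 and 19.1 FPKM in hda108. The hda108 level was 42.3-fold higher after meiosis than at the mitotic stage, and WT 2.02-fold. GRMZM2G092474 had 10.1 and 9.83 FPKM in WT against 599 and 120 FPKM in hda108. The post-meiotic hda108 value stood apart in both genes, with WT low at the 2 stages.

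In the opposite direction, GRMZM2G181227 (chromosome 10, 19483613 to 19489654) had 4.54 and 1.91 FPKM in WT against 31.9 and 138 FPKM in hda108, 7.02-fold and 72.3-fold above WT. GRMZM2G057031 had 4.49 and 2.33 FPKM in WT against 22.6 and 56.8 FPKM in hda108. GRMZM2G027479 had 1.18 and 0.501 FPKM in WT against 15.1 and 42.9 FPKM in hda108. All 3 were lower at the mitotic stage in WT and higher there in hda108. GRMZM2G166159, with 4.96 and 2.49 FPKM in WT against 45.3 and 93.7 FPKM in hda108, had the same order of values.

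Stage differences within a genotype were small for the median member. The median mitotic minus post-meiotic difference was -0.26 log2 in WT and -0.36 log2 in hda108, against -0.31 and -0.27 for all genes. In WT, 5 members (3.68%) were higher and 3 (2.21%) lower at the mitotic stage by 2 or more, where 1.35% and 1.46% of all genes were. In hda108, 2 (1.47%) were higher and 16 (11.8%) lower, against 1.02% and 2.94%. After rescaling 3 members were higher and 9 (6.62%) lower, against 1.91% and 1.91% of all genes, and with quantile normalization 4 were higher and 13 (9.56%) lower, against 1.86% and 2.21%. GRMZM2G035049 (chromosome 2, 107485395 to 107486124) was lower at the mitotic stage in both genotypes, 44.9 and 0.782 FPKM in WT against 304 and 21.7 FPKM in hda108. GRMZM2G450717 was higher there in both, 0.156 and 3.28 FPKM in WT against 5.94 and 50.7 FPKM in hda108.

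**Figure D3:**
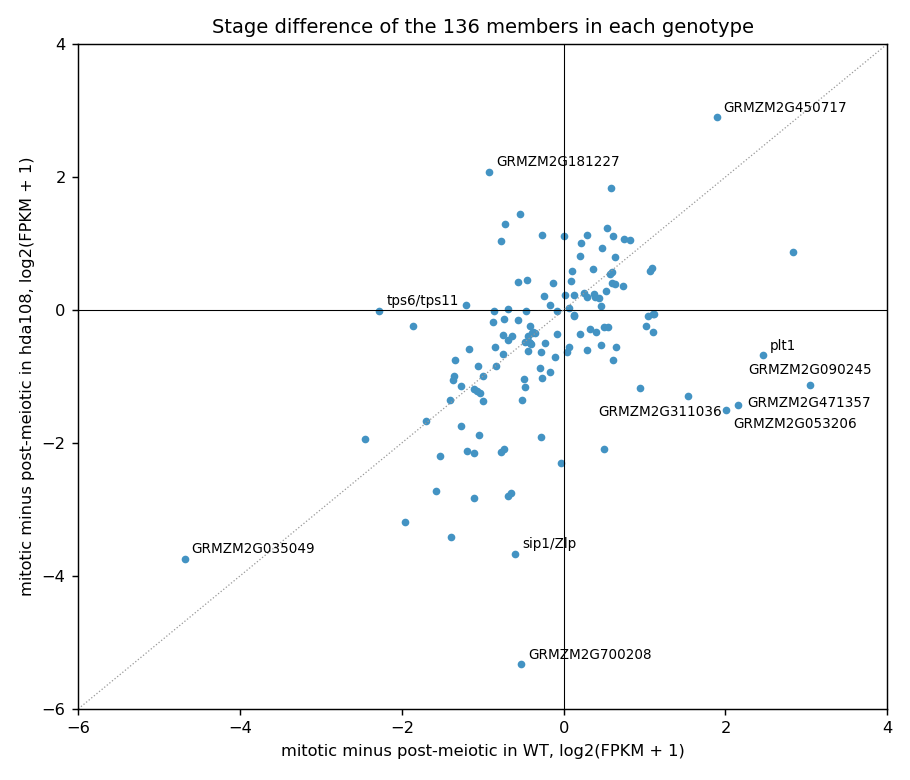
Mitotic minus post-meiotic difference in log2(FPKM + 1) of each of the 136 members, WT on the x axis and hda108 on the y axis, with the dotted line where both are equal. GRMZM2G700208 lies lowest, at -5.33 in hda108 and -0.52 in WT, and GRMZM2G035049 farthest left, at -4.69. GRMZM2G090245, GRMZM2G471357, GRMZM2G053206 and GRMZM2G311036 lie below 0 in hda108 and above 0 in WT.

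Position in the genome was not used by the rule. Members lay on all 10 chromosomes, 134 in all, with 2 on unplaced scaffolds and 0 in the mitochondrial or plastid genome. They made up 0.558% of the genes tested, from 0.224% on chromosome 8 (5 of 2235) to 0.823% on chromosome 10 (13 of 1580). Chromosome 4, which holds HDA108, had 18 of 2444, or 0.736%. Their loci were short, with a median of 1747 bases where the locus was not shared with another ID, against 3243 bases for all genes tested. The genes higher at 1 stage alone had medians of 1450 bases (after meiosis) and 1954 bases (mitotic), both below that of all genes.

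Within 100 kb of another member lay 11 members, in 5 groups. On chromosome 4, GRMZM2G117971 and GRMZM2G117942 stood 16.6 kb apart with 0 annotated genes between them. GRMZM2G117942 had 15.5 and 5.81 FPKM in WT at the 2 stages against 544 and 161 FPKM in hda108, and GRMZM2G117971 had 7.78 and 3.07 FPKM in WT against 190 and 83.0 FPKM in hda108. In each genotype both genes were lower at the mitotic stage, and their genotype differences (5.05 and 4.57, 4.45 and 4.37 log2) were among the 15 largest when members are ranked by the smaller of their 2 differences.

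A second pair on chromosome 4, 5.05 kb apart, consisted of GRMZM2G702522 with 0.557 and 0.294 FPKM in WT against 9.92 and 4.39 FPKM in hda108, and GRMZM2G047763 with 3.49 and 0.746 FPKM in WT against 38.8 and 19.0 FPKM in hda108. On chromosome 3, GRMZM2G426917, GRMZM2G177991 and GRMZM2G103748 followed each other at gaps of 83.9 and 95.6 kb. Levels differed within this group: GRMZM2G103748 had 133 and 112 FPKM in hda108, GRMZM2G177991 10.6 and 7.06, and GRMZM2G426917 7.75 and 17.9. On chromosome 5, pht1 stood 64.7 kb from GRMZM2G122654, which had 9.52 and 12.98 FPKM in hda108 and under 1 FPKM in WT. On chromosome 7, GRMZM2G022979 and GRMZM2G700192 were 54.9 kb apart with 11.3 and 17.6 FPKM in hda108 after meiosis. Whether the genes of a group share sequence, which could split or share reads between them, was not examined.

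The genes beside members were read next. Members themselves are left out of these neighbours, so the shares are set beside those of the 24224 tested genes that are no members. Of the 155 tested genes next to a member on either side, 9 (5.81%) were higher in hda108 after meiosis, against 1.13% of non-members (1.68% of all genes), and 3 (1.94%) were higher in mitotic anthers, against 0.97% (1.52% of all genes). For genes 2 places away the shares were 1.32% and 0.662%, and for genes 3 places away 2.53% and 0.633%. After rescaling, the post-meiotic shares 1, 2 and 3 places away were 7.10%, 5.30% and 5.06%, against 2.84% of non-members, and the mitotic ones 14.2%, 15.2% and 13.3%, against 13.2%. With quantile normalization they were 6.45%, 2.65% and 4.43% against 1.41% after meiosis, and 4.52%, 1.32% and 2.53% against 1.72% in mitotic anthers. The median difference of the next genes was 0.03 log2 after meiosis and 0.14 log2 in mitotic anthers, against -0.03 and -0.02 for all genes. The post-meiotic share rests on 9 genes, and its excess was not tested.

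Those 9 genes lay from 5.10 kb to 375 kb from their member. GRMZM2G061126, the nearest, had 1.26 and 1.69 FPKM in WT at the 2 stages against 8.92 and 8.81 FPKM in hda108. GRMZM2G328171, beside GRMZM2G162359, had the highest level, 47.9 and 27.1 FPKM in WT against 328 and 100 FPKM in hda108. Also among the 9, PR10 (GRMZM2G112524), of the pathogenesis-related proteins, is one of the genes set aside and lay 21.7 kb from the member GRMZM2G112538. PR10 had 3.82 and 2.98 FPKM in WT against 22.0 and 18.9 FPKM in hda108, and GRMZM2G112538 had 0.147 and 0.621 FPKM in WT against 7.28 and 5.95 FPKM in hda108.

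**Figure D4:**
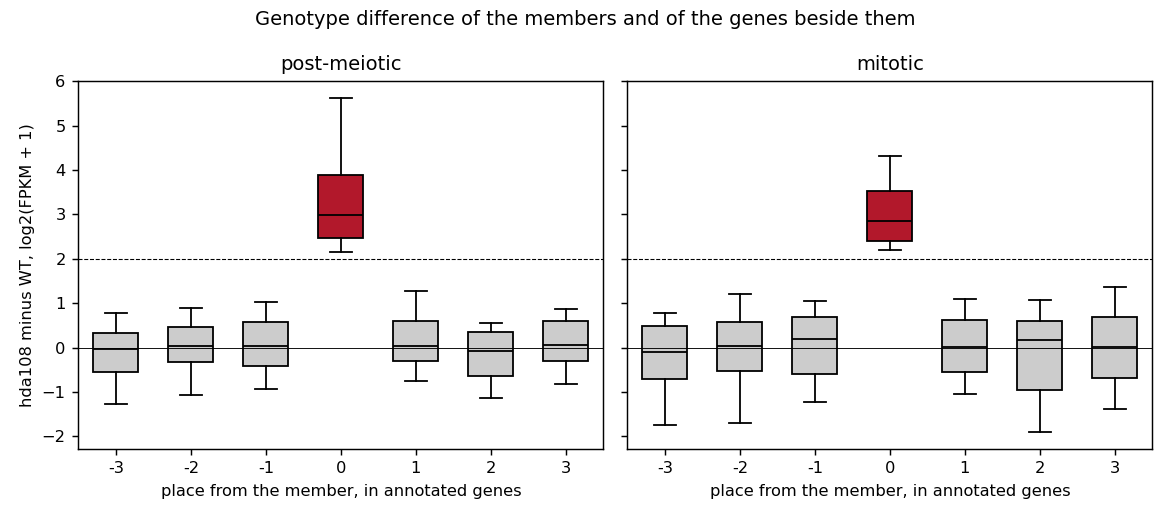
Boxes give the quartiles and median, and whiskers the 10th and 90th percentile, of the hda108 minus WT difference in log2(FPKM + 1) for the 136 members (red, place 0) and for the annotated genes up to 3 places before or after them that are not members (grey), after meiosis (left) and at the mitotic stage (right). The grey boxes lie around 0, and the members at medians of 2.98 and 2.86 by their choice.

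Genes most like the members were sought by the distance between a gene's 4 log2(FPKM + 1) values, centred per gene, and the members' mean pattern (-1.53, 1.86, -1.71 and 1.37 in WT and hda108 post-meiotic and WT and hda108 mitotic). Among genes outside the members with at least 5 FPKM in a group, the closest was GRMZM2G145461, a chitinase gene set aside by the rule, at a distance of 0.338, with 15.2 and 16.5 FPKM in WT against 231 and 155 FPKM in hda108. The next 4, GRMZM2G170281, GRMZM2G174449, GRMZM2G130728 and GRMZM2G099297, at 0.363 to 0.401, had WT under 0.5 FPKM at both stages and 7.19 to 18.3 FPKM in hda108. The member nearest the mean pattern was GRMZM2G447795, at 0.217, with 6.48 and 4.53 FPKM in WT against 77.8 and 50.1 FPKM in hda108.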

How the data were processed

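Per the file headers, the authors deposited FPKM, each gene having 1 value in each group. Tools named in the submitters' processing notes are Cuffdiff 2.2.1, Cufflinks, TopHat2 2.0.13, Trimmomatic 0.33, CASAVA 1.8 and SAMtools, and the build is B73 RefGen_v3. The sources used here do not say how libraries were combined and scaled. Columns headed as homozygous were read as hda108, the one mutant genotype of the labels. With 1 value per group, no test, adjusted p or interval was possible, and depth is unknown. Differences are of log2(FPKM + 1), with 2 or more counted as called, which understates the change of low genes; folds are ratios of FPKM. Genes with at least 1 FPKM in a group were tested. Coordinates are the deposited loci, whose counting from 0 or 1 is not stated. Of the IDs, 2342 have a locus that another ID also has, 5 of them members, so such a locus can span more than the gene. Names came from RefSeq genes of Zm-B73-REFERENCE-NAM-5.0, where 19060 of 39604 IDs matched.

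The members and the 22 gene lists, matched by symbol, were chosen with earlier results of these data known. One pattern of the sugar list that matched ribosome-inactivating genes was dropped as an error. Named genes were the named members, the 15 with the largest smaller difference, the extremes in level and between stages, close members, those at the limit and the genes most alike. Other genes in the text were chosen after their values were seen. Planned work on promoters and proteins was not run, as it needs sequences not used here. Computations used Python 3.11.15, numpy 2.4.6, pandas 2.3.3 and matplotlib 3.10.9, and were tested on simulated data.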

Additional observations from a re-analysis of the deposited data

Results flagged for a closer look

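In 4 members the stages differed in opposite directions in the 2 genotypes. Their log2(FPKM + 1) was at least 1 higher at the mitotic stage in WT and at least 1 lower in hda108. With 1 value per group, the difference between the genotypes was not tested. GRMZM2G090245, at 4.80 and 46.9 FPKM in WT against 661 and 301 FPKM in hda108, had stage differences of 3.05 and -1.13 log2. GRMZM2G471357, at 2.35 and 13.97 FPKM in WT against 258 and 94.9 FPKM in hda108, had 2.16 and -1.43. For GRMZM2G053206, at 5.24 and 24.1 FPKM in WT against 462 and 162 FPKM in hda108, they were 2.01 and -1.51, and for GRMZM2G311036, at 1.10 and 5.11 FPKM in WT against 79.4 and 31.8 FPKM in hda108, 1.54 and -1.29. None of the 136 had the reverse order at that size in log2(FPKM + 1), which understates the change of low genes. By ratio of FPKM, GRMZM2G181227 was 2.38-fold lower at the mitotic stage in WT and 4.33-fold higher in hda108. For GRMZM2G027479 these ratios were 2.37-fold and 2.84-fold. The reverse order is given as deposited only, and its values under other scalings are not given. The signs held in all 4 after rescaling and with quantile normalization, but 1 of them (GRMZM2G053206) reached 1 log2 in both genotypes after rescaling, and 2 (GRMZM2G053206 and GRMZM2G471357) with quantile normalization.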

How the results depend on the processing

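In the settings run, all 272 genotype differences of the members kept their direction. With a pseudocount of 0.1 and after rescaling 0 of them were under 2, as both settings can only widen a difference above 0 here. With quantile normalization, which could narrow them, 3 were, the lowest at 1.85. The median difference was 3.53 and 3.49 log2 (post-meiotic and mitotic) with a pseudocount of 0.1, after rescaling 3.55 and 4.04, with quantile normalization 3.25 and 3.25. The median stage difference was -0.36 in WT and -0.37 in hda108 with a pseudocount of 0.1, after rescaling -0.37 and 0.10, with quantile normalization 0.0635 and 0.0154, so its sign depends on the scaling. The median mitotic minus post-meiotic genotype difference was -0.14, 0.48 and -0.0803 in the same order. The rule gave 288 genes with a pseudocount of 0.1, 436 after rescaling, 42 at a difference of 3 and 306 at 1.5, and all genes higher at both stages numbered 568 with a pseudocount of 0.1 and 512 after rescaling; the cause of shifts not fixed by the setting itself was not tested. Members within 50 kb of another numbered 4. Leaving out single libraries was not run, as the values do not separate them. No paired analysis was possible because the columns carry no replicate numbers. Sequencing depth is unknown, so the error of members under 1 FPKM in WT, and of ratios to them, cannot be given.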
